A study of Mus musculus with 8 samples.

Results

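The LINC complex and the nuclear lamina are described here by the mRNA of 10 genes, taken as the rows of the deposited table whose gene symbol was *Sun1*, *Sun2*, *Syne1*, *Syne2*, *Syne3*, *Lmna*, *Lmnb1*, *Lmnb2*, *Emd* or *Tor1aip1*. All 10 were found among the 47643 genes of the table, each as a single row, and all 10 were among the 14229 genes expressed well enough to be tested. RNA was sequenced from quadriceps muscle of 8 C57BL/6 mice, 4 labelled *Nup210*+/+ and 4 labelled *Nup210*-/-, with 1 library per mouse. The *Nup210*-/- line is a constitutive knockout, in which exon 2 of this transmembrane nucleoporin gene was removed in all tissues by Cre expressed from the *Hprt* locus. Neither age nor sex of the animals, nor any treatment, is named in the sources used here.

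The nuclear lamina is a meshwork of lamin filaments under the inner nuclear membrane. SUN proteins span that membrane, bind lamins on the nuclear side and hold the KASH end of nesprins in the space between the nuclear membranes, and the nesprins reach through the outer membrane to actin, microtubule motors and intermediate filaments. This bridge, the LINC complex, anchors and spaces the many nuclei of a muscle fiber, and mutations in *LMNA*, *EMD*, *SYNE1* and *SYNE2* are known from Emery-Dreifuss muscular dystrophy.

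None of the 10 genes passed the comparison of genotypes in limma (Benjamini-Hochberg adjusted p of at most 0.05), a threshold that 0.112% of all tested genes passed. At an unadjusted limma p of 0.05, 2 of the 10 differed, *Tor1aip1* higher and *Lmnb2* lower in the libraries labelled *Nup210*-/-, against a background of 14.2% of tested genes. Of the 10 log2 fold changes, 4 were positive and 6 negative, from -0.32 for *Lmnb2* to 0.16 for *Tor1aip1*. Their median was -0.02, beside -0.01 for all genes tested. On scaled values no gene of the 10 separated the 4 libraries of one genotype from the 4 of the other, while 9.38% of tested genes did.

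The values are TPM. The read estimate for a gene is divided by transcript length, and each library is brought to a sum of 1000000. Levels can thus be compared between genes of a library. Between mice the fixed sum does not correct for composition. The 10 most abundant genes of a library held 28.1 to 32.0% of its TPM. Libraries were then scaled by the median ratio over 15225 genes, with factors from 0.936 to 1.12, and fold changes are on a scale of log2(scaled TPM + 1), which understates the change of low genes. The number of reads is unknown, so precision rests on the spread between mice. *Nup210* mRNA was 9.54, 10.79, 11.93 and 8.81 TPM in the libraries labelled *Nup210*-/- and 5.71, 10.11, 9.19 and 6.71 TPM in those labelled *Nup210*+/+ (log2 fold change 0.44, limma adjusted p = 0.231). The mRNA was thus not lower in the libraries labelled *Nup210*-/-. The values cover the whole gene and do not show exon 2, so the genotypes of these libraries rest on the labels. For the line, the study reports loss of the Nup210 protein in muscle by immunoprecipitation and immunofluorescence. The 6 muscle fiber markers, which check the tissue, summed to 6.78 to 7.14% of all TPM in *Nup210*+/+ and 7.42 to 7.93% in *Nup210*-/-. All 6 had positive estimates on scaled values. On TPM as deposited *Ttn* alone had a lower mean in *Nup210*-/- (88.92 against 89.85 TPM). Markers of leukocytes summed to 19.17 to 39.56 TPM in *Nup210*+/+ and 17.65 to 20.84 TPM in *Nup210*-/-, and those of fibroblasts to 542.6 to 968 TPM and 491.6 to 568.8 TPM, with negative estimates for the 4 tested of 6 leukocyte markers and for 4 of 4 fibroblast markers. *Nup210*+/+ replicate 2 stood apart: 6 granulocyte precursor genes summed to 381.69 TPM there and to at most 2.12 TPM elsewhere, and 6 genes of dividing cells to 54.41 TPM against at most 6.98 TPM. *Nup210*+/+ replicate 3 held the highest leukocyte and fibroblast sums given above and the largest scaling factor. Its 3 adipocyte markers summed to 229.39 TPM, against at most 131.66 TPM elsewhere.

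**Figure D1:**
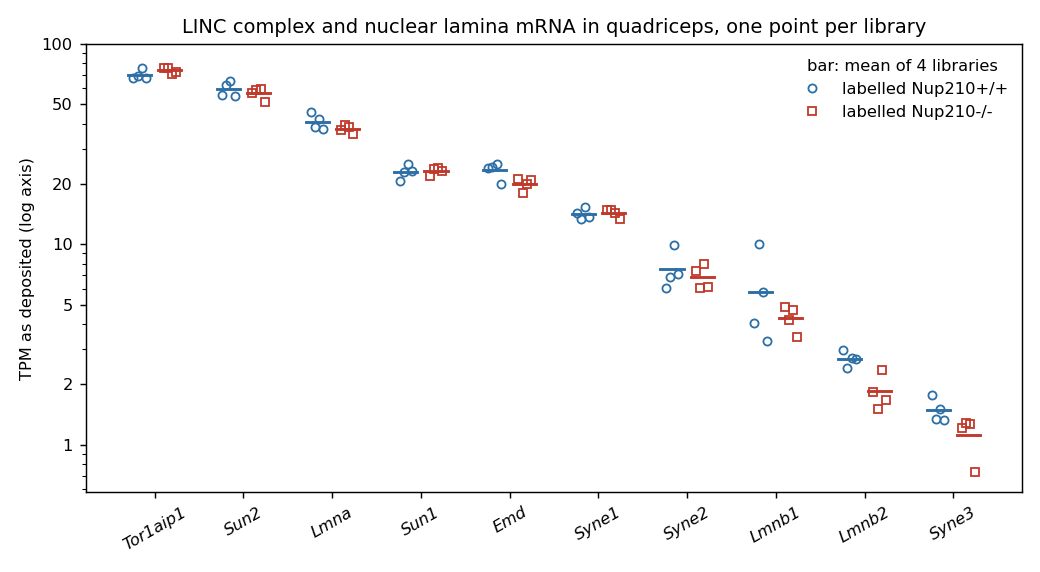
TPM as deposited on a log axis for the 10 genes in order of mean level, 1 point per library, with circles for the 4 libraries labelled *Nup210*+/+, squares for the 4 labelled *Nup210*-/- and a bar for the mean of each group. Levels run from 72.1 TPM for *Tor1aip1* to 1.31 TPM for *Syne3*, and the single *Lmnb1* point at 10.01 TPM is *Nup210*+/+ replicate 2.

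Levels of the 10 mRNAs spanned from a mean of 72.1 TPM for *Tor1aip1*, which was above 91.3% of the tested genes, to 1.31 TPM for *Syne3*, above 15.3%. The order between them was *Tor1aip1*, *Sun2* (58.1 TPM), *Lmna* (39.4 TPM), *Sun1* (23.1 TPM), *Emd* (21.7 TPM), *Syne1* (14.3 TPM), *Syne2* (7.18 TPM), *Lmnb1* (5.05 TPM), *Lmnb2* (2.27 TPM) and *Syne3*. Of these neighbors, *Sun1* and *Emd* overlapped most, with *Sun1* above *Emd* in 6 of 8 libraries. *Syne2* was above *Lmnb1* in 7 of 8 libraries, the exception being *Nup210*+/+ replicate 2, and *Lmnb2* was above *Syne3* in 8 of 8 although their ranges over libraries overlapped. The other neighbors did not overlap between any libraries. The coefficient of variation over the 8 libraries was 4.85 to 11.6% for the 6 most abundant genes, and 18.4% for *Syne2*, 42.9% for *Lmnb1*, 23.4% for *Lmnb2* and 22.5% for *Syne3*.

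*Sun1* and *Sun2* encode the SUN proteins of the inner nuclear membrane in somatic cells. *Sun1* (chromosome 5 of GRCm38, 139200637 to 139249840, plus strand) was 22.01, 23.70, 23.93 and 23.34 TPM in *Nup210*-/- and 20.60, 23.08, 25.14 and 23.16 TPM in *Nup210*+/+ replicates 1 to 4. On this scale the *Nup210*-/- libraries lay inside the *Nup210*+/+ range, and the log2 fold change was 0.018. After scaling, *Nup210*-/- replicate 4 was the highest of all 8, and the estimate was 0.11 (limma adjusted p = 0.492, standard error 0.0684), or 0.062 without *Nup210*+/+ replicate 1. *Sun2* (chromosome 15, 79724070 to 79742536, minus strand) was 56.85, 58.90, 59.44 and 51.60 TPM in *Nup210*-/- and 55.61, 62.39, 64.97 and 54.79 TPM in *Nup210*+/+. Its log2 fold change was 0.03 (limma adjusted p = 0.850, standard error 0.0562), and its unadjusted 95% interval corresponds to a fold of 0.934 to 1.11. On TPM as deposited the estimate for *Sun2* was -0.07, so its sign depends on the scaling. *Sun2* made up 68.9 to 73.0% of the summed TPM of both genes in every library. The ratio of *Sun1* to *Sun2* within a library averaged 0.411 ± 0.0284 in *Nup210*-/- against 0.388 ± 0.0248 in *Nup210*+/+ (SD, n = 4; two-sided exact permutation test, p = 0.314). Exons of *Sun1* and *Sun2* overlap those of *4930520M14Rik* and *Gm16575* on the opposite strand. Libraries were directional, but whether the estimates used the strand is not given in the sources used here.

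*Syne1*, *Syne2* and *Syne3* encode nesprins, of which the longest forms of nesprin-1 and nesprin-2 bind actin and nesprin-3 binds plectin. A nesprin mRNA yields a LINC complex protein only if it codes for the KASH end, and a row of the table sums all transcripts of a gene. The last 30 coding bases before the stop codon (GENCODE M21 transcripts on GRCm38, 5′ to 3′) are shown because they set KASH transcripts apart from the other transcript of the *Syne1* row. Capitals mark the last 4 codons, which begin with 3 proline codons in the KASH transcripts.

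Syne1, KASH end, 949 codons: ctcagatataccaacggtCCTCCTCCACTC
Syne2, KASH end, 6874 codons: ctgcggtacaccaacgggCCACCTCCCACC
Syne3, KASH end, 888 codons: atgcttcggtacaatggcCCCCCGCCCACC
Syne1, no KASH end, 1431 codons: cttgaagaagagtatgtgCTTCACCACTTC

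All 4 complete coding transcripts of *Syne2* and all 3 of *Syne3* in the table have a KASH end, as does 1 of the 2 of *Syne1*. The deposited row of *Syne1* (chromosome 10, 5020917 to 5551482, minus strand) covers only these 2 transcripts, the longer one of 6990 bases. GENCODE M21 annotates 9 transcripts for the gene, the longest of 27908 bases in 146 exons, and exons of the 2 deposited transcripts hold 27.5% of its annotated coding bases. For the other 9 genes the corresponding share was 100%. The row thus gives no separate level for giant nesprin-1, and whether reads from giant transcripts in the shared exons entered it was not tested.

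*Syne1* was 14.88, 14.90, 14.41 and 13.33 TPM in *Nup210*-/- and 14.37, 13.43, 15.28 and 13.61 TPM in *Nup210*+/+ replicates 1 to 4. On this scale the genotypes overlapped almost entirely, with a log2 fold change of 0.020 (exact permutation test, p = 0.743). After scaling they overlapped only by *Nup210*-/- replicate 4 at 14.24 and *Nup210*+/+ replicate 4 at 14.26 (exact permutation test, p = 0.0571), and the estimate was 0.11 (limma adjusted p = 0.465, standard error 0.0640). *Syne2* (chromosome 12, 75818134 to 76110926, plus strand) was 7.37, 6.02, 7.98 and 6.14 TPM in *Nup210*-/- and 6.04, 6.88, 9.96 and 7.08 TPM in *Nup210*+/+. Its estimate of -0.01 (limma adjusted p = 0.975, standard error 0.129) changed sign with the scaling and with several single libraries left out, *Nup210*+/+ replicate 3 being the highest. *Syne1* was 57.1 to 67.1% of the summed TPM of the 3 nesprin rows and *Syne2* 27.1 to 37.2%, both for the transcripts in the table. The ratio of *Syne1* to *Syne2* averaged 2.12 ± 0.281 in *Nup210*-/- against 1.95 ± 0.345 in *Nup210*+/+ (SD, n = 4; two-sided exact permutation test, p = 0.486).

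*Syne3* (chromosome 12, 104929933 to 105009809, minus strand) was 1.21, 1.28, 1.27 and 0.73 TPM in *Nup210*-/- and 1.77, 1.34, 1.51 and 1.33 TPM in *Nup210*+/+. On TPM as deposited the genotypes did not overlap (two-sided exact permutation test, p = 0.0286, the smallest that 4 against 4 libraries can give). Such separation was seen in 8.41% of tested genes on that scale. After scaling they did overlap (exact permutation test, p = 0.0571), and the log2 fold change was -0.18 (limma adjusted p = 0.556, standard error 0.133). *Nup210*-/- replicate 4 was far below the other libraries of its genotype, and without it the estimate was -0.09. At this level of about 1 TPM, changes were understated by the pseudocount. The ratio of mean TPM was 0.755 on values as deposited, which differs from the estimate by the scaling as well as by the pseudocount.

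**Figure D2:**
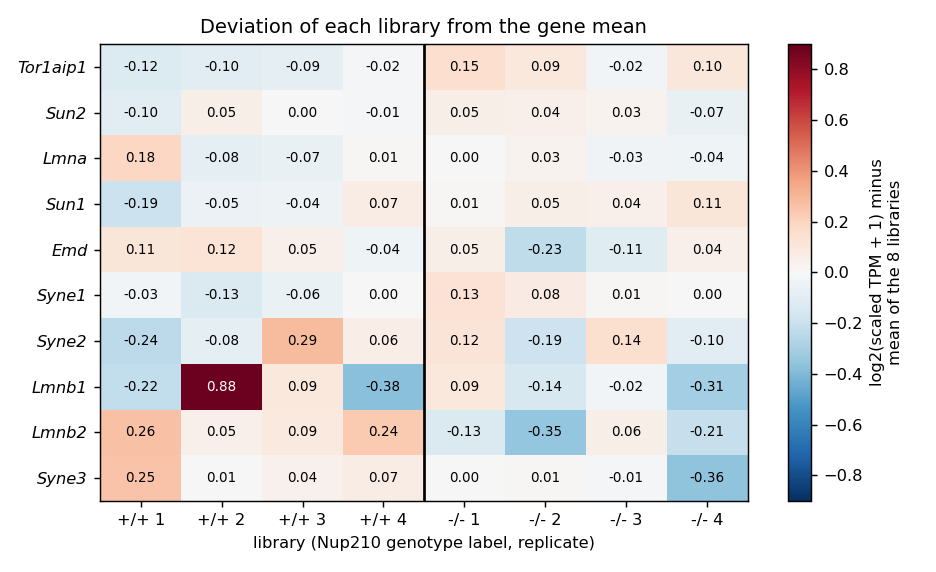
Deviation of each library (columns, labelled *Nup210*+/+ 1 to 4, then *Nup210*-/- 1 to 4) from the 8-library mean of each gene (rows, from the most to the least abundant), in log2(scaled TPM + 1), with red above and blue below the mean. *Lmnb1* in *Nup210*+/+ replicate 2, at 0.88, is the largest deviation of the 80, and the first 6 rows stay within 0.23 of 0.

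Lamins differ in their fate at the membrane. B-type lamins, from *Lmnb1* and *Lmnb2*, keep a farnesyl group at a C-terminal CaaX box, lamin A loses it on maturation, and lamin C, made from the same gene as lamin A by alternative splicing, has no such box. The ends of the coding sequences are shown because the *Lmna* row sums lamin A and lamin C transcripts. Capitals again mark the last 4 codons, starting with the cysteine codon TGC where a CaaX box is coded.

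Lmna, lamin A, CaaX box, 665 codons: agccagagctcccagaacTGCAGCATCATG
Lmnb2, CaaX box, 615 codons: aggactacctcaaggggcTGCCGACTGATG
Lmna, lamin C, no CaaX box, 574 codons: catcaccaccgtgtgagtGGCAGCCGCCGC

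*Lmna* (chromosome 3, 88480147 to 88509956, minus strand) holds 3 complete coding transcripts in the table, 1 of them with CaaX codons, so the value gives A-type lamin mRNA as a whole. It was 37.11, 39.62, 38.47 and 35.71 TPM in *Nup210*-/- and 45.93, 38.29, 42.01 and 37.71 TPM in *Nup210*+/+, with *Nup210*+/+ replicate 1 the highest. The means were 37.7 ± 1.69 and 41.0 ± 3.81 TPM (SD, n = 4), and the genotypes overlapped (exact permutation test, p = 0.200). After scaling the log2 fold change was -0.02 (limma adjusted p = 0.916, standard error 0.0693), with an unadjusted 95% interval equal to a fold of 0.884 to 1.10. Its sign turned under upper-quartile scaling, to 0.0049, and without *Nup210*+/+ replicate 1, to 0.04.

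*Lmnb1* (chromosome 18, 56707813 to 56753424, plus strand) was 4.89, 4.17, 4.71 and 3.44 TPM in *Nup210*-/- and 4.06, 10.01, 5.80 and 3.29 TPM in *Nup210*+/+ replicates 1 to 4. *Nup210*+/+ replicate 2 was the highest and is the library with the high granulocyte precursor and dividing cell markers, and the other *Nup210*+/+ libraries enclosed those labelled *Nup210*-/-. The log2 fold change was -0.19 (limma adjusted p = 0.763, standard error 0.249), with the widest interval of the 10 genes, and it was 0.08 without that library (adjusted p = 0.866 from limma). *Lbr*, the lamin B receptor, named here after its values were seen, was likewise highest in that library, with 22.13 TPM, while the other 7 held 11.15 to 13.83 TPM. Its log2 fold change was -0.09, and 0.10 without that library. The part of the marked cells in these values was not tested.

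*Lmnb2* (chromosome 10, 80901203 to 80918245, minus strand) had the most negative estimate of the 10 genes. It was 1.84, 1.51, 2.36 and 1.67 TPM in *Nup210*-/- and 2.95, 2.41, 2.72 and 2.67 TPM in *Nup210*+/+, a mean of 1.85 ± 0.369 against 2.69 ± 0.222 TPM (SD, n = 4). All *Nup210*-/- libraries were below all *Nup210*+/+ libraries on TPM as deposited (exact permutation test, p = 0.0286, the smallest possible here). On that scale 8.41% of tested genes separated the genotypes. Scaling raised *Nup210*-/- replicate 3 to 2.35, just above *Nup210*+/+ replicate 2 at 2.33, so the groups then overlapped (exact permutation test, p = 0.0571). The ratio of mean TPM as deposited was 0.687. The log2 fold change was -0.32 (standard error 0.120), and the adjusted p of 0.282 from limma did not pass. This is a fold of 0.803 in scaled TPM + 1, with an unadjusted 95% interval of 0.666 to 0.969, and it understates the change at this level. Over all alternatives the estimate stayed between -0.44 and -0.25, with an adjusted p from limma of 0.183 to 0.462. In bulk muscle, fewer cells that express a gene and less RNA per cell cannot be told apart. The leukocyte and fibroblast markers had lower ranges in *Nup210*-/- as well, and their part in the value of *Lmnb2* was not tested.

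*Lmna* made up 75.5 to 87.5% of the summed lamin TPM of a library, *Lmnb1* 7.53 to 19.7% and *Lmnb2* 3.33 to 6.11%. The ratio of *Lmna* to *Lmnb1* plus *Lmnb2*, which does not depend on how libraries are scaled, was 5.51, 6.98, 5.44 and 6.99 in *Nup210*-/- and 6.55, 3.08, 4.93 and 6.33 in *Nup210*+/+. The genotypes overlapped, with a difference of 0.30 in log2 (two-sided exact permutation test, p = 0.343) that was 0.07 without *Nup210*+/+ replicate 2. The ratio of *Lmnb1* to *Lmnb2* was 2.66, 2.76, 1.996 and 2.06 in *Nup210*-/- and 1.38, 4.15, 2.13 and 1.23 in *Nup210*+/+, a log2 difference of 0.25 (exact permutation test, p = 0.600) that was 0.61 without that library (exact permutation test, p = 0.114). Over the 4 ratios computed, the Benjamini-Hochberg adjusted exact permutation p was 0.600 for each.

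*Emd* encodes emerin, a LEM-domain protein of the inner nuclear membrane that binds lamin A and barrier-to-autointegration factor. The gene (chromosome X, 74254687 to 74261548, plus strand) was at 21.21, 18.04, 20.04 and 20.84 TPM in *Nup210*-/- and at 24.04, 24.41, 25.10 and 20.05 TPM in *Nup210*+/+. On TPM as deposited *Nup210*+/+ replicates 1 to 3 were above every *Nup210*-/- library, and *Nup210*+/+ replicate 4 lay among the *Nup210*-/- libraries. After scaling, *Nup210*+/+ replicate 3 at 22.35 was below *Nup210*-/- replicate 1 at 22.42. The log2 fold change was -0.12 (limma adjusted p = 0.511, standard error 0.0798), and p from the exact permutation test was 0.0857 before and 0.200 after scaling. The estimate was -0.21 on TPM as deposited and -0.065 without *Nup210*-/- replicate 2, the lowest library. Exons of *Emd* overlap those of *Gm14686*, on the same strand.

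*Tor1aip1* encodes LAP1, an inner nuclear membrane protein that binds lamins and activates the ATPase torsinA. It lies on chromosome 1, from 156004599 to 156036480 on the minus strand, and its exons overlap those of *Tor1aip2* on the opposite strand. The mRNA was 75.82, 75.91, 71.13 and 72.46 TPM in *Nup210*-/- and 67.88, 69.60, 75.89 and 67.90 TPM in *Nup210*+/+. *Nup210*+/+ replicate 3 reached the level of the *Nup210*-/- libraries as deposited (exact permutation test, p = 0.200). After scaling the groups overlapped only by *Nup210*-/- replicate 3 at 70.8 and *Nup210*+/+ replicate 4 at 71.2 (exact permutation test, p = 0.0571). The log2 fold change was 0.16 (limma adjusted p = 0.247, standard error 0.0564), which is a fold of 1.12 with an unadjusted 95% interval of 1.03 to 1.22. On TPM as deposited the estimate was 0.07, and over all alternatives the adjusted p from limma was 0.156 to 0.603. Muscle fiber markers were also higher in *Nup210*-/-, without overlap of the summed TPM, and their part in this value was not tested.

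**Figure D3:**
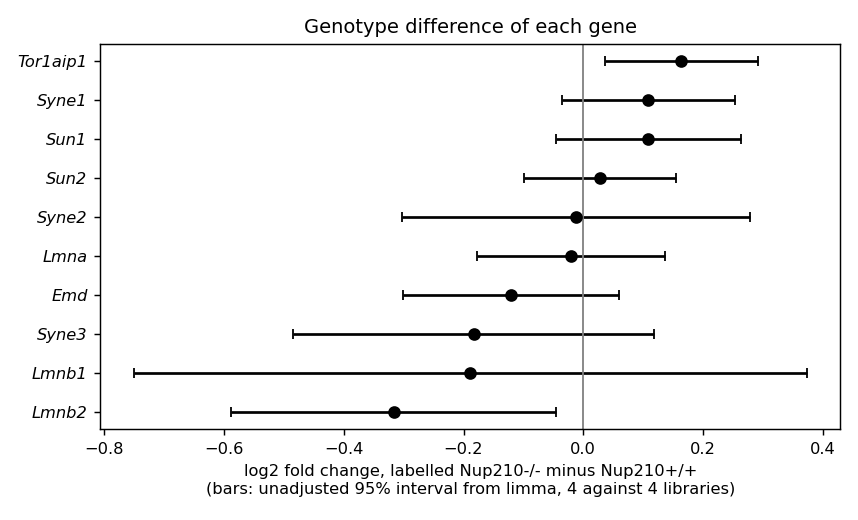
Log2 fold change of each of the 10 genes (libraries labelled *Nup210*-/- minus *Nup210*+/+, points) with its unadjusted 95% interval from limma (bars). The intervals of *Tor1aip1* and *Lmnb2* leave out 0, no gene passed the adjusted threshold, and the interval of *Lmnb1* is the widest, from -0.75 to 0.37.

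Other genes of the nuclear envelope were counted by list. Among 6 other SUN and KASH genes, *Sun3* was listed at 0 in all libraries, *Sun5*, *Spag4* and *Ccdc155* were too low to be tested, and *Syne4* and *Lrmp* were tested, neither passing an adjusted p of 0.05 in limma. *Syne4*, which encodes nesprin-4, had a mean of 0.888 ± 0.515 TPM among *Nup210*-/- mice against 1.42 ± 0.864 TPM among *Nup210*+/+ mice (SD, n = 4; log2 fold change -0.27, adjusted p = 0.699 from limma). Single libraries moved this estimate to -0.077 (without *Nup210*+/+ replicate 2 or without *Nup210*-/- replicate 3) and to -0.48 (without *Nup210*+/+ replicate 4). *Lrmp*, a KASH gene known from lymphocytes, was 0.73, 0.75, 0.47 and 1.23 TPM in *Nup210*-/- and 1.73, 5.24, 2.46 and 1.16 TPM in *Nup210*+/+. Its log2 fold change was -0.86 (limma adjusted p = 0.247, standard error 0.296) and -0.56 without *Nup210*+/+ replicate 2, its highest library. Leukocyte markers were lower in *Nup210*-/- too, and their part was not tested.

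Of 12 inner nuclear membrane and LEM-domain genes, all were tested, 5 had a positive and 7 a negative estimate, no adjusted p was below 0.05, and 1 gene passed an unadjusted p of 0.05, where 14.2% of all tested genes did. The median log2 fold change was -0.03, beside -0.01 for all genes. The gene that passed was *Nrm*, encoding nurim, a multipass protein of the inner nuclear membrane. *Nrm* was 0.79, 1.05, 0.61 and 0.74 TPM in *Nup210*-/- and 1.93, 3.05, 1.99 and 1.64 TPM in *Nup210*+/+, without overlap on either scale (exact permutation test, p = 0.0286), as in 9.38% of tested genes on scaled values and 8.41% on TPM as deposited. Its log2 fold change was -0.74 (standard error 0.156), the adjusted p from limma was 0.116, and over all alternatives it ran from 0.0622 to 0.288. *Tmem38a*, a muscle cation channel of the sarcoplasmic reticulum and nuclear membrane, was the most abundant of the list at 805.6 TPM (log2 fold change 0.08), followed by *Plpp7* at 84.3 TPM (0.05), which encodes the muscle nuclear envelope protein NET39. The largest positive estimate of the list was 0.08, for *Ankle2*. All 3 of these turned negative on TPM as deposited.

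The torsins and *Tor1aip2*, 5 genes, had 1 positive and 4 negative estimates with a median of -0.06, and none passed an adjusted p of 0.05 in limma or an unadjusted p of 0.05. *Tor1aip2* (LULL1, the torsin partner of the endoplasmic reticulum) was at 54.1 TPM (log2 fold change -0.0061), *Tor1b* at 18.5 TPM (0.05) and *Tor1a*, the gene of torsinA, at 6.14 TPM (-0.25). The estimate for *Tor1a* was -0.13 without *Nup210*-/- replicate 4, -0.15 without *Nup210*+/+ replicate 2 and -0.39 without *Nup210*-/- replicate 2, and with the replicate number as a block its unadjusted limma p was 0.0495. The 5 lamin processing genes had a median of 0.0027, and none passed either threshold. They include *Zmpste24*, the protease that matures lamin A, with a mean of 21.2 ± 1.96 TPM among *Nup210*-/- mice against 22.7 ± 3.82 TPM among *Nup210*+/+ mice (SD, n = 4; log2 fold change 0.0027). The farnesyltransferase subunits *Fnta* (56.6 TPM) and *Fntb* (7.76 TPM) had log2 fold changes of 0.02 and 0.14, and the methyltransferase *Icmt* -0.04. Of 3 lamina partners, none passed either threshold. *Banf1*, encoding barrier-to-autointegration factor, was at 105.0 TPM (log2 fold change 0.03) and *Narf*, a prelamin A binding protein, at 80.6 TPM (0.18).

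Cytoplasmic partners of nesprins at the nuclear surface, 13 genes, had 10 positive and 3 negative estimates on scaled values, with a median of 0.06. Of all 14229 genes tested, 6927 had a positive estimate. The split depends on the scaling: on TPM as deposited, several genes with positive estimates had a lower mean in *Nup210*-/-, *Kif5b* among them. No adjusted p from limma was below 0.05, and 3 genes passed an unadjusted p of 0.05 (14.2% of all tested genes did), all higher in *Nup210*-/-: *Plec*, *Klc2* and *Fhod1*, which encode plectin, a kinesin light chain and a formin. *Plec* was 67.36, 81.58, 73.10 and 66.20 TPM in *Nup210*-/- and 65.19, 58.82, 66.11 and 66.47 TPM in *Nup210*+/+, with a log2 fold change of 0.26 (limma adjusted p = 0.211, standard error 0.0804). On TPM as deposited the estimate was 0.16 and the genotypes overlapped. After scaling, *Plec* and *Klc2* separated the genotypes, as did 9.38% of tested genes. *Klc2* (0.18) and *Fhod1* (0.21) were named after their values were seen, as genes that passed the unadjusted threshold. *Kif5b*, the kinesin heavy chain that moves muscle nuclei, was at 57.1 TPM (log2 fold change 0.06, and -0.03 on TPM as deposited). The most negative estimate was -0.06, for *Klc4*. The summed TPM of the muscle fiber markers was higher in the same libraries, and the part of muscle fibers was not tested.

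**Figure D4:**
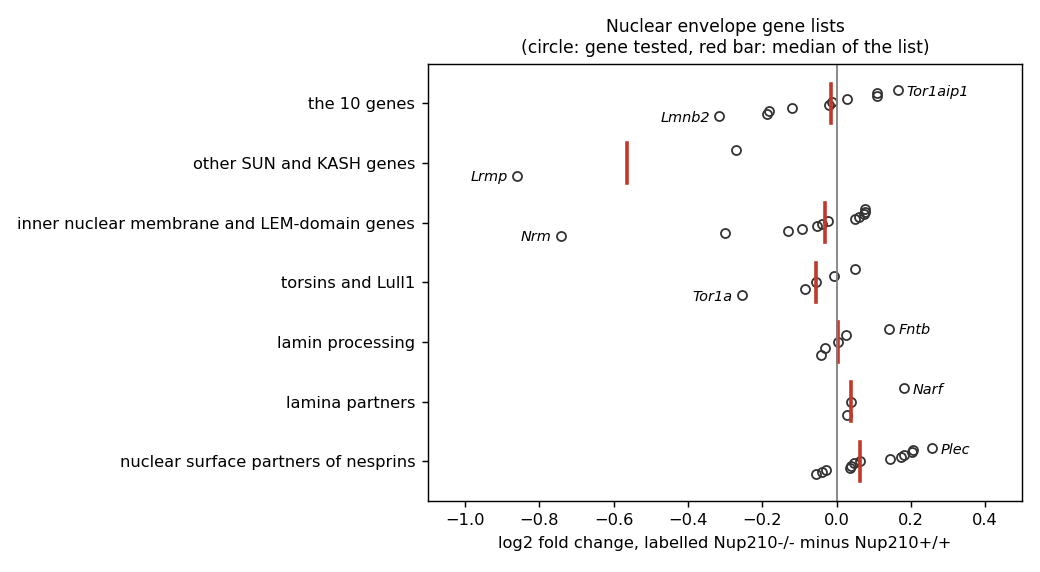
Log2 fold change (libraries labelled *Nup210*-/- minus *Nup210*+/+) of each tested gene (circles) in the 10 genes and 6 related lists (rows), with the median of each list as a red bar. *Nrm* at -0.74 and *Lrmp* at -0.86 lie apart from the other genes, which are between -0.32 and 0.26.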

How the data were processed

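Quadriceps RNA of 4 *Nup210*+/+ and 4 *Nup210*-/- mice was measured. Per the submitters' processing notes and the methods of the study, polyadenylated RNA went into directional single-end libraries, and the authors trimmed with cutadapt 2.3, aligned to mm10 with STAR 2.7.0d and estimated expression with RSEM 1.3.1 on Ensembl annotation. The deposited values are TPM per gene and library, without pooling, and depth cannot be recovered from them.

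TPM were scaled by the median of ratios, and the 14229 genes averaging 0.5 TPM or more were fitted as log2(scaled TPM + 1) with limma 3.58.1 in R 4.3.3 (intensity trend, genotype as the only term, Benjamini-Hochberg adjustment over all genes tested). Single genes and ratios were tested by exact permutation, two-sided, over the 70 labelings of 8 libraries. The count test of the study could not be run on TPM.

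The 10 genes and the lists were chosen with earlier results of these data known. Named genes were the 10 genes, *Nup210* and, from each list, the 2 most abundant genes, those with the largest and smallest log2 fold change and any past an adjusted p of 0.05. Annotation and sequences are from GENCODE M21 on GRCm38, matched by Ensembl identifier. The alternatives were other pseudocounts, filters, scalings, eBayes without trend, library weights, a replicate block and each library left out.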

Additional observations from a re-analysis of the deposited data

Results flagged for a closer look

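In 72 groups of 4 libraries, the gap between the highest or lowest library and its nearest neighbor was divided by the range of the group. Chance places about 1 in 20 groups beyond Dixon's 95% limit, or 3.6 of these, and 2 were beyond it. *Syne3* in *Nup210*-/- replicate 4 was at 0.73 TPM, while the other 3 libraries lay between 1.21 and 1.28 TPM (gap 0.873 of the range). *Plec* in *Nup210*+/+ replicate 2 was at 58.82 TPM, below the range of 65.19 to 66.47 TPM of the others (gap 0.833 of the range).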

How the results depend on the processing

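In all 18 fits the limma adjusted p stayed above 0.05 for each of the 10 genes, the lowest being 0.156. The 4 level ratios, which scaling cannot change, kept their direction with each library left out, and none reached an exact permutation p of 0.05. The number of genes called over the whole table moved from 16 to 27 with a mean TPM of at least 1, 84 with library weights, 1 with any TPM above 0, and 0 with upper-quartile scaling (2071 at an unadjusted p of 0.05), eBayes without trend (1952) or the replicate block (1850). It was 0 to 10 with single libraries left out. The replicate numbers did not pair the libraries: deviations of same-numbered libraries correlated across genes by -0.03 to 0.09, and 2 of 8 libraries correlated best with their own number. On TPM as deposited the median of the 10 genes was -0.10, with -0.08 for all genes. On that scale 2 of the 10, *Lmnb2* and *Syne3*, separated the genotypes, as did 8.41% of tested genes. With single libraries left out 0 to 3 of the 10 did, beside 12.2 to 18.4% of tested genes. The 3 were *Syne1*, *Syne3* and *Lmnb2* without *Nup210*+/+ replicate 2, where 13.1% of tested genes separated. Without *Nup210*+/+ replicate 4 they were *Sun1*, *Syne1* and *Tor1aip1*, where 18.4% did.

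Of 170 alternative estimates for the 10 genes, 160 kept their sign. The filters, eBayes without trend and the replicate block leave an estimate unchanged, so their part of this count was fixed in advance. On TPM as deposited *Sun2* was -0.065, *Fnta* -0.069, *Banf1* -0.066, *Zmpste24* -0.088, *Plpp7* -0.045, *Tor1b* -0.040, *Kif5b* -0.029, *Tmem38a* -0.018 and *Ankle2* -0.013. Upper-quartile scaling gave 0.0049 for *Lmna*, 0.011 for *Syne2* and 0.020 for *Tor1aip2*, and library weights 0.076 for *Syne2*. With single libraries left out, the ranges that crossed 0 were -0.051 to 0.038 for *Lmna*, -0.35 to 0.076 for *Lmnb1*, -0.092 to 0.082 for *Syne2*, -0.18 to 0.097 for *Lbr*, -0.033 to 0.081 for *Banf1*, -0.0039 to 0.068 for *Fnta*, -0.15 to 0.010 for *Klc4*, -0.024 to 0.0093 for *Tor1aip2*, -0.012 to 0.098 for *Tor1b* and -0.038 to 0.067 for *Zmpste24*. The causes were not tested.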
